A study of Mus musculus with 10 samples.

Results

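Small leucine-rich proteoglycans (SLRPs) are secreted matrix proteins built around a curved stack of leucine-rich repeats, many of them carrying sugar chains. The 9 members described here are Dcn, Bgn, Aspn, Lum, Fmod, Prelp, Omd, Ogn and Podn, taken by gene name from the non-control spots of the arrays out of 35527 names. Each had 1 probe, and all 9 entered the comparison. The samples were infrarenal aortas of male C57BL/6J mice aged 10 weeks, collected 7 days after surgery, with 1 aorta per array. In the PPE group (5 mice) the closed-off aortic segment was filled for 5 min at 100 mmHg with saline containing type I porcine pancreatic elastase (PPE) at 1.5 U per mL, an elastin-degrading enzyme that induces abdominal aortic aneurysm (AAA). Sham mice (5 in all) had the same surgery and pressure with saline alone, so an effect of the surgery is shared by both groups and there is no unoperated aorta here. Aortic RNA (500 ng) gave the red signal, and the Stratagene universal mouse reference RNA gave the green signal on every array. A value is the log2 ratio of aorta over reference, and a change is the PPE mean minus the sham mean of that ratio. Because each probe has its own reference level, ratios of different genes are not set against each other as amounts of RNA.

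SLRPs coat collagen fibrils, where they set fibril thickness and spacing, and several of them also bind growth factors or receptors of innate immunity. In an artery they are made chiefly by the fibroblasts of the adventitia and by smooth muscle cells. Class I holds decorin, biglycan and asporin, class II holds lumican, fibromodulin, PRELP and osteomodulin, class III holds osteoglycin, and podocan belongs to class V. Many of the genes lie side by side in the genome. In the RefSeq gene table of assembly GRCm38.p6, Ecm2, Aspn, Omd and Ogn follow each other on chromosome 13, Dcn, Lum, Kera and Epyc on chromosome 10, and Optc, Prelp and Fmod on chromosome 1.

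The upstream sequences of the 3 members on chromosome 13 are shown because the data separate these neighbours, with Ogn and Omd lower in PPE and Aspn not. Each is the 250 bases before the annotated start, 5′ to 3′ on the plus strand, from RefSeq (GRCm38.p6). Capitals mark the letters of the TATA box (TATAAA), the CCAAT box, the AP-1 site (TGANTCA) or the CArG box on either strand.
Ogn, chr13:49607765-49608014: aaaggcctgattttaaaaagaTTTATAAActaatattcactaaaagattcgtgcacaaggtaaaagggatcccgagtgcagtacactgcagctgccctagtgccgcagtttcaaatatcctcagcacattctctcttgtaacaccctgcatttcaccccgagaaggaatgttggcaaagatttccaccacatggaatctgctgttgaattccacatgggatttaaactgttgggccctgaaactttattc
Omd, chr13:49582212-49582461: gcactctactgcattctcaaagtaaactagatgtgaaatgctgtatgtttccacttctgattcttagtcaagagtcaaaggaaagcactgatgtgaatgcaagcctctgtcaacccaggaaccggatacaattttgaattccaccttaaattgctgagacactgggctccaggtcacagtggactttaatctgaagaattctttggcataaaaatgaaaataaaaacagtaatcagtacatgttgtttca
Aspn, chr13:49544193-49544442: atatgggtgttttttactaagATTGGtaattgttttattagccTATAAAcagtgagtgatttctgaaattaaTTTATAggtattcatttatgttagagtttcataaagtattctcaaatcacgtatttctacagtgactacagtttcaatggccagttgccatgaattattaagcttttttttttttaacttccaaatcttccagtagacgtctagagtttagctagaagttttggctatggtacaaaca
The TATA box letters occurred in the Ogn window on both strands, in overlapping letters 229 to 222 bases before the start, and in the Aspn window at 207 to 202 bases on the plus strand and at 178 to 173 bases on the minus strand. The Aspn window also held a CCAAT box on the minus strand. None of the 7 motifs searched, which also included a GC box (GGGCGG), the E-box (CANNTG) and a Smad box (CAGACA), was found in the Omd window. The E-box was present at 3 places in the Ogn window and at 1 in that of Aspn. Over the 32851 promoters of the table, windows of the same length held the TATA box in 12.4%, the CCAAT box in 33.8%, the AP-1 site in 6.75%, the CArG box in 1.47%, the GC box in 32.7%, the E-box in 66.2% and the Smad box in 17.1%. These matches describe letters only. GC made up 42% of the bases before Ogn, 38.4% before Omd and 30% before Aspn. Of the 9 members, 7 had an entry in this promoter table.

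Gene by gene tests were run with limma over all 22520 names tested, and a name was called at a Benjamini-Hochberg adjusted p under 0.01, the false discovery rate used in the study. Of the 9 members, 2 were called lower in PPE (Ogn and Omd), where 9.96% of all names were called lower. By the same test 0 members were called higher, where 13.8% of all names were, and at an unadjusted p under 0.05 the counts were 1 higher (Lum) and 4 lower (Ogn, Omd, Bgn and Prelp). Groups did not overlap for 2 members, Ogn and Omd, against 25.5% of all names. The median change of the 9 members was -0.51, with 7 below 0 and 2 above, and that of all names was 0.02. Over all names there were 3116 higher and 2243 lower calls, so 58.1% were higher, and centring each array on its median in place of loess gave 408 higher and 8 lower (98.1% higher). Between 37.6% (sham 5) and 65.8% (PPE 1) of an array's spots had a red signal well above background.

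Osteoglycin, also called mimecan, was the member with the largest change. Its log2 ratios were 3.12, 3.20, 2.67, 3.02 and 3.29 on sham 1 to 5, and 0.36, 1.50, 0.71, 0.04 and 0.34 on PPE 1 to 5. The lowest sham aorta lay above the highest PPE aorta, which was PPE 2. Ogn fell by 2.47 on the log2 scale (SE 0.24, 95% CI -3.00 to -1.94, limma adjusted p 1.63e-05), which is 5.54-fold, from 3.06 ± 0.24 in sham to 0.59 ± 0.56 in PPE (SD, n = 5 each). The probe lies on chromosome 13 from 49719549 to 49719608 (mm9, as in the files). Channels rebuilt from the normalized ratio and the scaled mean brightness differed by -2.24 (red) and 0.23 (green) on the log2 scale. Red minus green is the fitted change by construction, so the channels are not separate evidence for it. These are whole aortas, so fewer cells of a type and less RNA per cell cannot be told apart.

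Osteomodulin (osteoadherin), a keratan sulfate proteoglycan known from bone, showed a change of nearly the same size. Omd was 2.53, 2.59, 1.70, 2.26 and 2.95 on sham 1 to 5, and -0.50, 0.47, 0.03, -0.48 and 0.38 on PPE 1 to 5. All sham aortas were above all PPE aortas. Omd fell by 2.43 (SE 0.26, 95% CI -2.99 to -1.86, limma adjusted p 2.87e-05), a 5.38-fold decrease, from 2.41 ± 0.46 to -0.02 ± 0.46 (SD, n = 5 each). The probe spans 49687847 to 49687906 on chromosome 13 (mm9). The channels, rebuilt in the same way, differed by -2.39 (red) and 0.04 (green). The changes of Ogn and Omd differed by 0.04 on the log2 scale, where the difference between both genes varied within sham with an SD of 0.23 and within PPE with an SD of 0.41.

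The differences of Ogn and Omd were of like size on each slide that carried both groups, and both calls were kept with any 1 array left out. For Ogn the difference was -2.19 on slide 1 (1 sham and 2 PPE arrays) and -2.56 on slide 2 (2 of each), and for Omd it was -2.55 and -2.37. With 1 array left out, the change ran from -2.70 to -2.33 for Ogn and from -2.60 to -2.29 for Omd, with limma adjusted p up to 0.000102 and 0.000164. Median centring ended both calls, with changes of -1.61 for Ogn (limma adjusted p 0.194) and -1.75 for Omd (0.0328). Under that centring the median of all names was 0.41, and relative to it Ogn stood at -2.02 and Omd at -2.15.

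**Figure D1:**
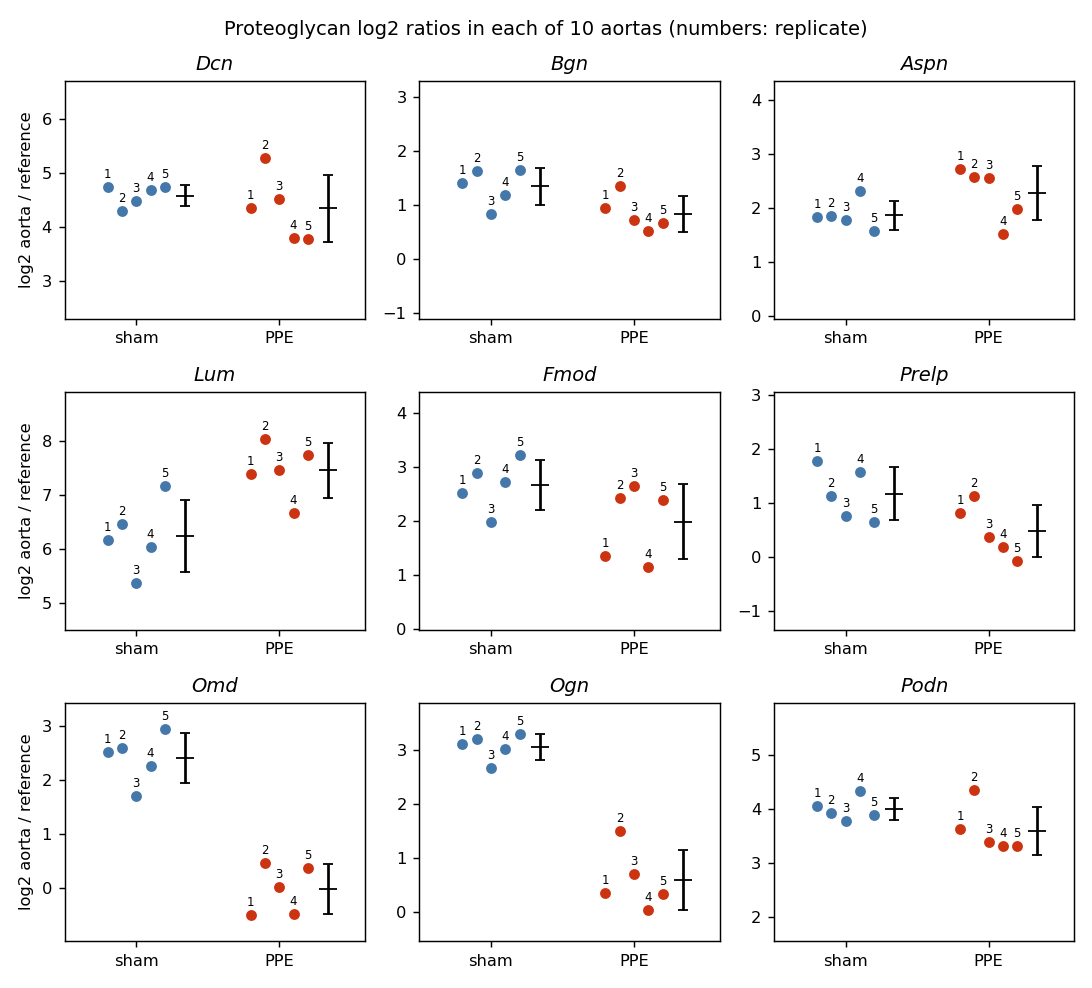
Log2 ratio of aorta over reference (vertical axes, all spanning the same number of log2 units) for each of the 9 members in 5 sham (blue) and 5 PPE (red) aortas, with replicate numbers beside the points and the group mean ± SD as black bars. For Ogn and Omd the sham points lie at or above 2.67 and 1.70 and the PPE points at or below 1.50 and 0.47, and in the other 7 panels the groups overlap.

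Asporin, a class I member that binds collagen and transforming growth factor beta and lacks the sugar chain of its relatives, did not change with its neighbours on chromosome 13. Aspn was 1.82, 1.84, 1.78, 2.31 and 1.57 on sham 1 to 5 and 2.71, 2.57, 2.55, 1.52 and 1.98 on PPE 1 to 5. PPE 1, 2 and 3 lay above all sham aortas, and PPE 4 lay below them. The difference was 0.40 (SE 0.23, 95% CI -0.10 to 0.90, limma adjusted p 0.204), with the probe at 49662479 to 49662538 (mm9). Set against Aspn on the same arrays, the change of Ogn was lower by 2.87 and that of Omd by 2.83 on the log2 scale, and in both cases the groups did not overlap. These comparisons of neighbours were picked with the values known and are a description.

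Ecm2, the gene beside Aspn, codes for a matrix protein related to the SLRPs. It was 4.97, 4.81, 3.83, 4.86 and 4.23 on sham 1 to 5 and 3.20, 2.96, 2.06, 1.77 and 1.55 on PPE 1 to 5, without overlap. Ecm2 fell by 2.23 (SE 0.34, limma adjusted p 0.000357), and under median centring the change was -1.51 (limma adjusted p 0.143). Cenpp, a kinetochore gene that overlaps this stretch of chromosome 13, differed by 0.80 and was not past the threshold (limma adjusted p 0.0452). Of the 4 family genes in the row, 3 fell and Aspn, between them, was not called.

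Decorin, the class I member that binds collagen fibrils and transforming growth factor beta, showed little difference. Dcn was 4.73, 4.30, 4.47, 4.69 and 4.74 on sham 1 to 5 and 4.34, 5.28, 4.52, 3.79 and 3.78 on PPE 1 to 5. The PPE aortas spread to both sides of the sham aortas. The difference was -0.25 (SE 0.26, 95% CI -0.81 to 0.32, limma adjusted p 0.512), and the probe lies on chromosome 10 from 96980233 to 96980292 (mm9). It turned to 0.68 under median centring and to 0.07 in the red channel alone, so no direction can be given for Dcn.

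Lumican, a class II keratan sulfate proteoglycan best known from the cornea, is the neighbour of Dcn on chromosome 10 and had the largest positive difference among the members. Lum was 6.17, 6.46, 5.37, 6.03 and 7.17 on sham 1 to 5 and 7.39, 8.04, 7.47, 6.67 and 7.75 on PPE 1 to 5. Sham 5 lay above PPE 4, and apart from these 2 arrays the groups did not overlap. The difference was 1.22 (SE 0.32, 95% CI 0.51 to 1.93), a 2.33-fold higher ratio, at a limma adjusted p of 0.0116, just outside the threshold. The probe lies at 97035210 to 97035269 (mm9). Without sham 5 the difference was 1.46 (limma adjusted p 0.00252) and without PPE 4 it was 1.42 (0.00537), both past the threshold. On slide 1 the difference of the reported values was 1.54 and on slide 2 it was 1.16. Relative to Dcn on the same arrays, Lum changed by 1.47, without overlap of the groups, again a description of neighbours picked with the values known. Epyc, the epiphycan gene at the other end of this row, differed by 1.14 (limma adjusted p 0.019) and was well above background on 2 sham and 4 PPE arrays. Its difference was past the threshold in 6 of 23 alternatives, with a fixed slide block (1.27, limma adjusted p 0.000434), a random slide block (1.14, 0.00283), a scan day block (0.95, 0.00782), the replicate block (1.14, 0.00734), without PPE 5 (1.45, 0.000439) and without sham 5 and PPE 5 (1.42, 0.00123). Kera was above background on 0 arrays.

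Biglycan, which can be shed from matrix and then bind the innate receptors TLR2 and TLR4, was 1.41, 1.62, 0.83, 1.18 and 1.65 on sham 1 to 5. On PPE 1 to 5 Bgn was 0.94, 1.35, 0.71, 0.51 and 0.66. PPE 3, 4 and 5 lay below every sham aorta, and PPE 1 and 2 lay among them. The difference was -0.51 (SE 0.19, 95% CI -0.93 to -0.08, limma adjusted p 0.0652), turning to 0.20 under median centring. The probe is on chromosome X from 70738554 to 70738613 (mm9).

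Fibromodulin, which steers collagen cross-linking, was 2.51, 2.88, 1.98, 2.72 and 3.22 on sham 1 to 5. In PPE, Fmod split into low arrays (1.35 on PPE 1 and 1.15 on PPE 4) and arrays within the sham range (2.42, 2.65 and 2.39 on PPE 2, 3 and 5). The difference was -0.67 (SE 0.32, 95% CI -1.37 to 0.04, limma adjusted p 0.136), with the probe on chromosome 1 from 135943998 to 135944057 (mm9). Under median centring the difference of Fmod was -0.04 (limma adjusted p 0.971). PRELP, a member with a basic region that binds heparan sulfate, is coded beside Fmod. Prelp was well above background on 4 sham and 3 PPE arrays, so its values sit near the limit of detection, and in the green channel on 3 of 10 arrays. It was 1.78, 1.14, 0.76, 1.58 and 0.66 on sham 1 to 5 and 0.83, 1.13, 0.37, 0.19 and -0.06 on PPE 1 to 5. Its difference was -0.69 (SE 0.27, 95% CI -1.28 to -0.10, limma adjusted p 0.0694), with the probe on chromosome 1 from 135806855 to 135806914 (mm9). The size depends on how dim signals are handled. In the log ratios of the scanner software the Prelp difference was -1.78 (limma adjusted p 0.0269), and Prelp was past the threshold in the red channel alone (-0.91, limma adjusted p 0.000217), with a fixed slide block (-0.72, limma adjusted p 0.00583) and with a fixed scan day block (-0.85, limma adjusted p 0.00365). The changes of Fmod and Prelp differed by 0.02. The difference between both genes varied with an SD of 0.70 within sham and 0.84 within PPE.

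Podocan, the class V member, was 4.05, 3.92, 3.77, 4.32 and 3.89 on sham 1 to 5 and 3.62, 4.35, 3.38, 3.30 and 3.30 on PPE 1 to 5. All PPE aortas other than PPE 2 lay below all sham aortas, and PPE 2 lay above them all. The difference was -0.40 (SE 0.20, 95% CI -0.84 to 0.04, limma adjusted p 0.152), with the probe on chromosome 4 from 107687484 to 107687543 (mm9). Without PPE 2 the difference of Podn was -0.59 and past the threshold (limma adjusted p 0.00684), and under median centring it was 0.23.

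Another 9 genes of the wider family were looked up, of which 7 were tested. Of these, 1 was called higher and 3 lower, beside 13.8% and 9.96% of all names, with a median change of -0.28. Opticin, coded beside Prelp and known from the vitreous of the eye, had the largest decrease of these. Optc was 5.53, 5.06, 4.56, 5.44 and 4.99 on sham 1 to 5 and 2.44, 3.43, 2.29, 2.24 and 1.30 on PPE 1 to 5. The groups did not overlap, with a change of -2.77 (SE 0.33, limma adjusted p 6.31e-05), or -1.76 under median centring (limma adjusted p 0.156). Chadl, a chondroadherin-like gene, was lower as well (-1.02, limma adjusted p 0.000608), by its brighter probe, while a dimmer probe of Chadl, well above background on 6 arrays, gave 0.07. Podnl1, the closest relative of Podn, was the gene called higher (0.82, limma adjusted p 0.00058). Median centring ended these calls too, with a limma adjusted p of 0.708 for Chadl and 0.0763 for Podnl1.

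**Figure D2:**
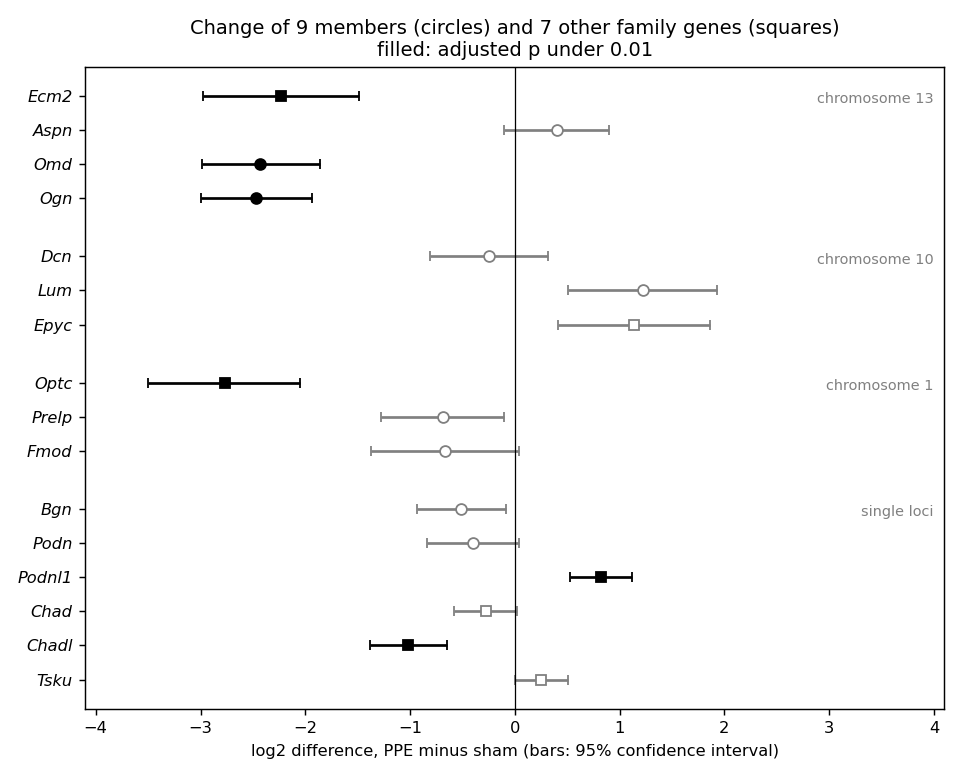
Change (PPE minus sham, log2, horizontal axis) with its 95% confidence interval for the 9 members (circles) and the 7 other tested family genes (squares), grouped by genomic row, with filled symbols where the limma adjusted p was under 0.01. On chromosome 13 the line of Aspn (0.40) stands between those of Ecm2 (-2.23) and Omd (-2.43). On chromosome 1 Optc (-2.77) lies to the left of Prelp (-0.69) and Fmod (-0.67). Lum (1.22) and Epyc (1.14) lie to the right of 0 with unfilled symbols.

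The members varied together within groups. After each gene's group means were taken off, 34 of the 36 correlations between members over the 10 arrays were above 0, with a median Pearson r of 0.61 and a range from -0.03 (Fmod with Prelp) to 0.91 (Lum with Omd). This is a description over 10 points, and all genes of an array were measured in the same RNA sample and hybridization. Among PPE aortas, PPE 2 was the highest for 7 of 9 members (Dcn, Bgn, Lum, Ogn, Prelp, Podn and Omd) and PPE 4 the lowest for 6. Among sham aortas, sham 5 was the highest for 6 and sham 3 the lowest for 6. Sham 3 was also the lowest sham array for 7 of 10 lists of cell type markers, and PPE 2 the highest PPE array for 8. The share of positive correlations between other names was not computed, so the pattern is not called particular to the members.

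Markers of the cells that make these proteoglycans were read on the same arrays, where 13.8% of all names were called higher and 9.96% lower. Of 18 adventitial fibroblast markers, 4 were called higher (largest Sfrp1 2.47 and Ly6a 1.59) and 4 lower (largest decreases Gsn -2.35 and Dpep1 -1.29), with a median change of -0.15, and in the red channel alone 7 were lower. Their mean log2 ratio ran from 2.21 to 2.70 over the sham aortas and from 2.02 to 2.92 over the PPE aortas. This mean is taken over markers that moved both ways. It was highest in PPE 2 (2.92) and lowest in PPE 4 (2.02). Within sham it was highest in sham 1 (2.70, with sham 5 at 2.69) and lowest in sham 3 (2.21). PPE 2 was the highest PPE array for 8 of the 10 marker lists read, smooth muscle, endothelium and adipocytes among them. The lowest PPE array was PPE 3 for 6 lists and PPE 4 for 3. Of 10 smooth muscle markers, 8 were called lower (Synpo2 -2.98, by its brightest of 3 probes, and Tagln -2.95 the most) and 0 higher, and the mean ran from 3.39 to 4.63 in sham and from 1.75 to 2.02 in PPE other than PPE 2, which stood at 2.95. Of 9 macrophage markers, 7 were called higher (Fcgr1 3.89 and Emr1 3.42 the most) and 0 lower, with means of 0.74 to 1.31 in sham and 2.78 to 3.82 in PPE. Among 11 markers of activated fibroblasts, 7 were called higher (Cthrc1 3.75, above background on 2 sham arrays, and Timp1 3.46 the most) and Acta2, which is also a smooth muscle marker, was lower (-2.49), with means of 1.14 to 1.48 in sham and 2.27 to 2.88 in PPE. The part of these shifts in the changes of Ogn and Omd was not tested. Endothelial (7 tested) and skeletal muscle (5) markers had 0 calls by limma. Tendon markers had 1 of 4 lower (Scx -0.88), with a median change of 0.64. Thbs4 (1.73), Tnmd (0.99) and Mkx (0.30) lay above 0 and were not called. All 7 adipocyte markers were below 0, with a median of -0.67 and 1 called lower (Pparg -1.15), and 3 were called with a fixed slide block and 6 in the red channel alone. Mesothelial markers had 2 of 6 higher (Wt1 2.54, above background on 3 sham arrays, and Cdh1 1.47, on 2), and of markers of cartilage and bone, where Ogn and Omd are also made, 1 of 7 was higher (Col2a1 1.32, above background on 1 sham array) and 0 were lower. These counts were 0 and 0 with probes above background on all 10 arrays.

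**Figure D3:**
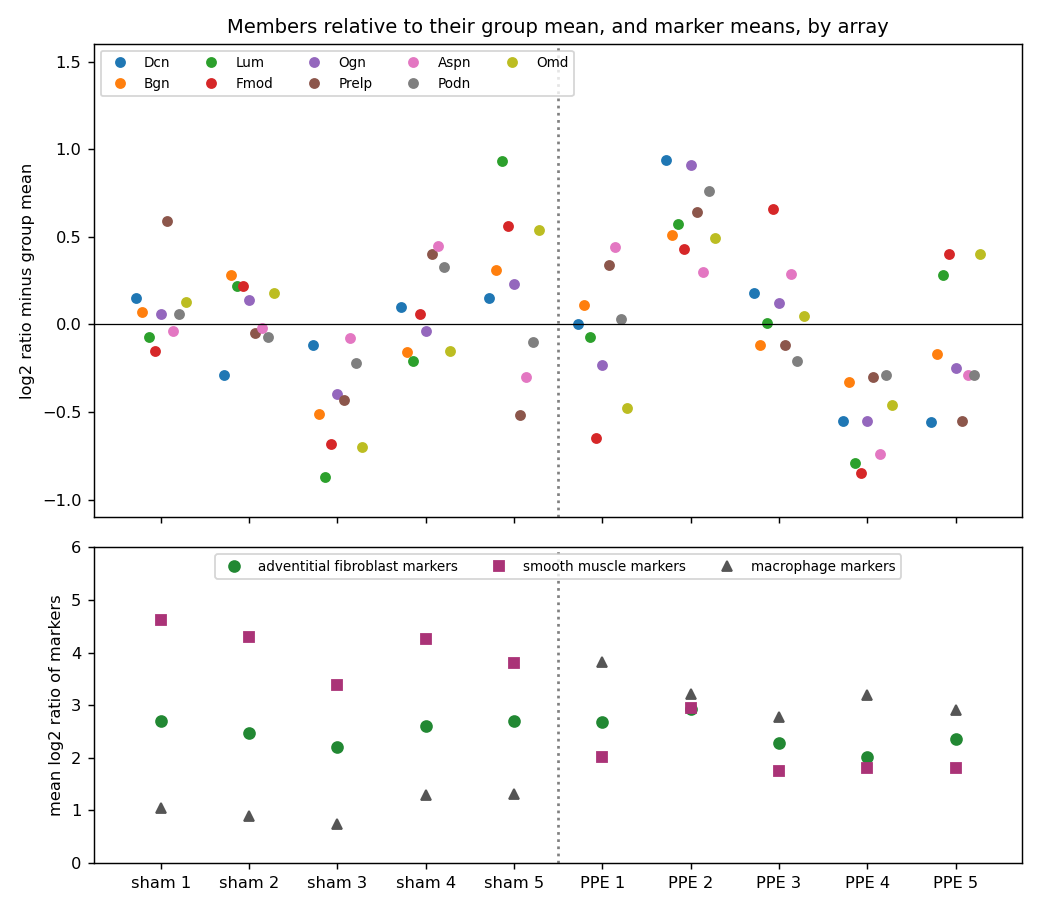
Upper panel, log2 ratio of each member minus its group mean, per array. Lower panel, mean log2 ratio of the adventitial fibroblast, smooth muscle and macrophage markers on the same arrays, with sham left and PPE right of the dotted line. The members lie mostly below 0 on sham 3 and PPE 4 and above 0 on PPE 2, the array on which the smooth muscle mean was 2.95 and the adventitial mean 2.92.

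Collagens, cross-linking enzymes and other proteins of the fibrils that SLRPs coat made up a list of 18 tested genes, of which 9 were called higher and 1 lower, with a median of 0.97. Col12a1 (3.06) and Col11a1 (2.59, above background on 2 sham arrays) rose most, and Col1a1, the main chain of type I collagen, rose by 2.04 (SE 0.22, limma adjusted p 3.06e-05). Pcolce2, an enhancer of procollagen processing, was the gene that fell (-2.15). Among 31 tested genes that build or sulfate the sugar chains, 8 were called higher and 3 lower, with a median of 0.29. For this list and the collagen list, the shares over all names were 13.8% higher and 9.96% lower. Dse and Chst11, which modify dermatan and chondroitin chains, each rose by 1.30, and the sulfotransferase genes Chst3 and Chst1 changed by -2.22 and -0.99.

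Proteases that can cleave SLRPs made up a list of 17 tested genes, of which 12 were called higher and 2 lower, with a median of 1.85. Ctss (cathepsin S) rose by 5.12, and Adamts1 (-1.72) and Htra1 (-1.57) fell. Mmp8, Mmp12 and Mmp13 were well above background on 0 sham and 5 PPE arrays and entered the test through PPE alone, so they had to differ. For Mmp13 the mean scaled red signals were 6.82 in sham and 10.88 in PPE (log2). Their plain ratio is 16.7-fold, and the fitted fold of the Mmp13 ratios was 16.3. With probes above background on all 10 arrays, 6 proteases were called higher. Bmp1, the protease that trims the propeptides of decorin, biglycan and osteoglycin, rose by 0.93 (SE 0.18, limma adjusted p 0.00189) by its brightest probe, and its other probes gave 2.0 and 0.76. Of 33 tested ligands and receptors that SLRPs are known to bind or signal through, 12 were higher and 5 lower, with a median of 0.45. Cd14 (3.30) and Thbs1 (3.22) rose most, and Erbb4 (-1.44, above background on 2 PPE arrays) and Bmp6 (-1.29) fell most. Tgfb1 rose by 1.41 (SE 0.14, limma adjusted p 1.42e-05). Of the 2 biglycan receptors, Tlr2 rose by 2.83 (SE 0.25, limma adjusted p 6.74e-06) and Tlr4 differed by 0.24 (limma adjusted p 0.327). Each list is described beside a median of 0.02 for all names, of which 13.8% were called higher and 9.96% lower. Nothing is called particular to a list.

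**Figure D4:**
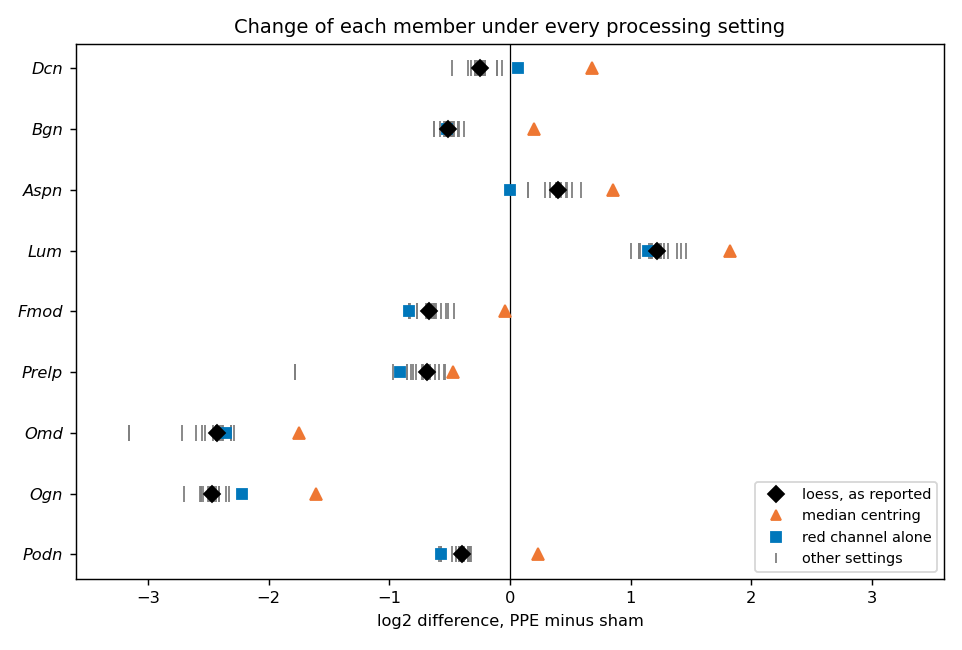
Change of each member (PPE minus sham, log2, horizontal axis) under every processing and left-out array that was tried, with the reported value as a black diamond, median centring as an orange triangle and the red channel alone as a blue square. Ogn and Omd lie below 0 throughout (-1.61 and -1.75 at the highest), Lum lies above 0 throughout (1.82 at the highest), and the triangles of Dcn, Bgn and Podn fall on the other side of 0 from the diamonds.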

How the data were processed

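RNA from 10 infrarenal aortas (5 sham, 5 PPE) was hybridized to 2-colour Agilent whole-genome arrays with aorta in Cy5 (red) and universal reference in Cy3 (green). Dyes were not swapped. Per the study's methods, the authors left out arrays of poor hybridization and outliers in clustering, and which arrays these were is not given in the sources used here. Groups and replicate numbers came from the sample labels. The authors extracted spots with Feature Extraction 10.7.3.1 (submitters' processing notes). In the deposited scanner files, spot and local background signals are linear intensity values and LogRatio is log10 of red divided by green, and the authors' value table holds log2 ratios of the processed signals, not centred further, equal to log2 of processed red over green on 100% of spots within 1e-04.

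In R 4.3.3 with limma 3.58.1, mean signals were corrected with normexp (offset 50) against the median local background and normalized by loess within each array. The offset draws dim ratios towards 0. Control spots and 176 to 331 outlier spots per array were left out, no spot was saturated, and replicate spots were averaged. Probes entered the test with red signal well above background (in a share of at least 0.5 of their spots) on 5 or more of the 10 arrays. Each of 22520 names was represented by its brightest tested probe. Groups were compared unpaired (lmFit, eBayes, two-sided) with Benjamini-Hochberg adjustment over all names; limma took the place of the study's SAM test. The limma step alone was checked, on simulated log ratios, which cannot check background correction or loess. The red fold given for Mmp13 is the PPE mean over the sham mean on Aquantile-scaled channels, and dye bias can affect it. A sham signal below the dimmest well-above-background signal of its array would be raised to that signal.

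Arrays lay on 5 slides. Slide 1 (sham 1, PPE 1, PPE 2) was the only one of the second scan day, sham 2, sham 3, PPE 3 and PPE 4 shared slide 2, and the other 3 slides held 1 array each. The precision is limited by the number of arrays. The members, gene lists and tests were chosen with earlier results of these data known. Named were all members, up to 2 genes per direction with the largest called changes of each list, Tgfb1, Tlr2, Tlr4, Col1a1 and Bmp1, and for each member the most correlated other names, of which 1 is not reported here. Cenpp, Epyc and Kera were added as genomic neighbours. Promoter sequences come from RefSeq (GRCm38.p6), probe positions from the files (mm9). The alternatives were another offset (10), median centring, Aquantile, the red channel alone, the scanner LogRatio, the authors' value table, other filters, the mean of probes, blocks for slide, scan day and replicate number, and arrays left out.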

Additional observations from a re-analysis of the deposited data

How the results depend on the processing

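Over 24 alternatives (23 for Prelp, which is lost when all 10 arrays must be above background), 215 member values were recomputed. Direction and side of the threshold were kept in 198, 10 passed the threshold, 2 lost it and 5 changed sign. Aquantile leaves log ratios as they are and gave the same values. Each member had 1 probe, so the mean of probes and the other filters could change its adjusted p but not its difference. The authors' value table gave the same member differences as the scanner LogRatio. The 198 therefore includes values that these settings could not move or that repeat others, and it is no measure of robustness. Median centring gave 408 names higher and 8 lower and 0 members lower, and turned Dcn to 0.68, Bgn to 0.20 and Podn to 0.23. It left Fmod at -0.04. In the red channel alone Dcn was 0.07 and Aspn -0.00303. The cause was not tested. The count of members called higher was 1 (Lum) with probes above background on all 10 arrays, with slide as a random block, with the replicate block, and without sham 5 and PPE 5 together (chosen after seeing the data, for their small shares of spots above background; limma adjusted p 0.0054). With 1 array left out it ran from 0 to 1, the members lower from 2 to 3 (Podn joined without PPE 2), the names higher from 2512 to 3615 and the names lower from 1754 to 2352. Same-numbered sham and PPE arrays deviated together with correlations of 0.29, -0.30, 0.16, -0.14 and 0.52, and 1 of 5 sham arrays and 2 of 5 PPE arrays were closest to their own number. Since not every correlation was above 0.1, the numbers were not taken to pair the samples. The replicate block gave 3022 higher and 2283 lower names, and Lum passed the threshold with it (1.22, limma adjusted p 0.00421). Of 720 recomputed list counts, 652 stayed within 1.5 times, and median centring took the lower smooth muscle markers from 8 to 0, the higher macrophage markers from 7 to 2, the higher collagen partners from 9 to 2 and the higher proteases from 12 to 5. Prelp is limited by signal over background, which 3 of 10 arrays did not pass. No array stood apart from its group in any of the 18 groups of member values by Dixon's test (critical ratio 0.71).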

Other observations

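For each member, the 15183 other names above background on all 10 arrays were searched for the ratio most like it. All names of an array were measured in the same RNA sample and hybridization. Over the 10 arrays Ogn was closest to Pls3, a gene for an actin-bundling protein (Pearson r 0.99, change of Pls3 -2.32). Omd was closest to Kazald1 (r 0.99, change -1.98). A correlation over both groups favours names with a like group difference. Prelp was closest to Eif4ebp2 (r 0.98), Lum to Stk11ip (0.97), Podn to Fam107a (0.97), Bgn to Enpp4 (0.96), Fmod to BC068281 (0.96), Dcn to Erlec1 (0.93) and Aspn to 1190007F08Rik (0.93). With group means taken off, which leaves the variation between aortas of a group, the closest names included Dmpk for Podn (r 0.97), Cxcl11 for Omd (0.97, change -0.41), 2610028H24Rik for Ogn (0.96, change -0.09), Nbl1 for Dcn (0.96), Haus4 for Lum (0.96), Tmem18 for Bgn (0.95) and Wnt9a for Fmod (0.95), and 1190007F08Rik again for Aspn (0.92). The highest of so many correlations over 10 arrays is high in any case, and no p-value is given.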
